A study of Homo sapiens with 21 samples.

Results

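The genes described here are LIN28A and LIN28B and 8 oncofetal targets of the let-7 microRNAs: HMGA2, IGF2BP1, IGF2BP2, IGF2BP3, TRIM71, ARID3A, ARID3B and E2F5. They were taken by symbol from the deposited expression table, in which all 10 were found among 27142 genes. Their messenger RNA was followed across 21 libraries of HEK 293FT, a transformed human embryonic kidney line that carries the SV40 large T antigen. The question asked was whether let-7 targets move together when a cell expresses a short hairpin RNA, or each on its own. Cells at passages 8 to 12 were transfected with plasmids by Lipofectamine, and RNA was taken 48 h later. There were 7 groups of 3 biological replicates. The shRNA groups expressed a hairpin against ANXA4, a hairpin against B4GALNT1 or a non-targeting (NT) hairpin. The single-guide groups expressed RfxCasR, an RNA-guided RNA-cutting CRISPR nuclease, with a B4GALNT1 guide or an NT guide. The array groups expressed RfxCasR with an ANXA4 array or an NT array of guides. All groups share the cell line and the transfection, and each hairpin or guide is a single design, so a gene's change cannot be assigned to the loss of the target or to the design itself. No untransfected cells were included among the groups compared.

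The let-7 microRNAs repress messenger RNAs that carry matches to their seed, mostly in the 3′ untranslated region. LIN28A and LIN28B are RNA-binding proteins that hold back the processing of let-7 precursors, and their own messenger RNAs are let-7 targets, so that the proteins and the microRNA repress each other. Fetal tissues and many tumours express LIN28B, HMGA2 and the IGF2BP proteins, while let-7 is abundant in most differentiated tissues. An shRNA is cut by Dicer and loaded onto Argonaute, the same steps that a microRNA passes through, whereas RfxCasR guides do not need them.

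The seed is what joins these genes, so the mature sequences are shown with it. In RefSeq (GRCh38.p14), 11 distinct mature human microRNA sequences carry the let-7 seed, here in capitals (bases 2 to 8). 4 of them are:
let-7a-5p: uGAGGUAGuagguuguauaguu
let-7g-5p: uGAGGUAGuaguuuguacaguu
let-7i-5p: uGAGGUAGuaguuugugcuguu
miR-98-5p: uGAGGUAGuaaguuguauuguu
They share the 7 seed bases and differ only behind them.

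LIN28 proteins are known to bind a GGAG motif in the loop of let-7 precursors. All 12 precursors listed had a hairpin sequence, and 9 held GGAG, against 43.4% of all 1562 human hairpins in the same table. Both counts take GGAG anywhere in the hairpin, so they do not compare motifs in the loop. A hairpin with the motif, in capitals, is let-7g (chromosome 3, minus strand):
MIRLET7G: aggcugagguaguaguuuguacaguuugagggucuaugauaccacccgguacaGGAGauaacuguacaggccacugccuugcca
Its mature sequence is the let-7g given above.

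All 10 genes held at least 1 match to the seed in the 3′ untranslated region of their GENCODE v29 transcript. An 8mer match is CTACCTCA, a 7mer-m8 match is CTACCTC without the A, and a 7mer-A1 match is TACCTCA without the first C, all on the transcript's strand. TRIM71 held 4 8mers among 8 sites, IGF2BP1 held 3 among 5, and LIN28B held 2 among 5. HMGA2 held 1 8mer among 7 sites, and ARID3A 1 among 3. IGF2BP2, IGF2BP3 and LIN28A each held 1 8mer, IGF2BP2 with 1 more 7mer. ARID3B had 5 sites and E2F5 had 1, with 0 8mers in either. Among 12206 tested coding genes with a 3′ untranslated region read, 14.6% held any site, 3.33% held an 8mer and 0.139% held 2 or more. These shares are not matched for length. The median region there was 932 bases, against 656 for E2F5 and 1556 to 6206 for the other members. The genes were listed as let-7 targets, so these matches describe them and test nothing.

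Examples of 8mer sites are printed with the match in capitals, 2 of the 4 of TRIM71, 2 of the 3 of IGF2BP1 and all of those of the other genes named, to show that the bases around the match are not shared (GRCh38, transcript strand):
LIN28B chr6:105078813-105078834: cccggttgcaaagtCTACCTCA
LIN28B chr6:105081422-105081443: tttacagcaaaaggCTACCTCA
TRIM71 chr3:32891969-32891990: acattgcttaagtcCTACCTCA
TRIM71 chr3:32895829-32895850: ttgtggcaagtcatCTACCTCA
IGF2BP1 chr17:49051062-49051083: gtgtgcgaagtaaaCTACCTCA
IGF2BP1 chr17:49054353-49054374: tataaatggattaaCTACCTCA
HMGA2 chr12:65963299-65963320: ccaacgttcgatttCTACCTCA
IGF2BP2 chr3:185644220-185644241: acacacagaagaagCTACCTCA
IGF2BP3 chr7:23311795-23311816: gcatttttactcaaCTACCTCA
ARID3A chr19:974512-974533: ctgcctatctctgtCTACCTCA
The strand is minus for IGF2BP2 and IGF2BP3 and plus for the others. ARID3B carries the 7mer-m8 match at chr15:74598102-74598123, on the plus strand:
ARID3B: atttcaataaacctCTACCTCt

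Levels are in FPKM, fragments per kilobase of exon per M reads (M for mega), a share of each library and not an absolute amount, so that a higher FPKM and less RNA of other genes cannot be told apart. The 9 shRNA libraries held 21.4 to 28.95 M reads, recovered from the steps of the FPKM values, the 6 single-guide libraries 24.5 to 30.7 M and the 6 array libraries 34.7 to 39.5 M. The targeted genes were lower in 3 of the 4 comparisons with their own control. ANXA4 averaged 2.40 ± 0.22 FPKM with its shRNA and 5.90 ± 0.378 with the NT shRNA, while B4GALNT1 averaged 2.78 ± 0.183 with its shRNA and 4.08 ± 0.179 with the NT shRNA (SD, n = 3 each). With the single guide B4GALNT1 averaged 2.21 ± 0.167, against 5.89 ± 0.907 with the NT guide. The libraries labelled ANXA4 array had more ANXA4, 7.03 ± 0.24 FPKM, against 3.03 ± 0.427 in the libraries labelled NT array, so the array libraries go against their labels. Across 13657 genes their fold changes ran opposite to the authors' deposited table, with a correlation of −0.87, so no direction is drawn from the array labels. Of 10 markers listed for HEK 293 cells, 9 had a median of at least 1 FPKM, with vimentin highest at 388 to 682 FPKM. Of 8 markers of blood, endothelium and fibroblasts, 5 stayed under 1 FPKM in every library, among them CD3E and PTPRC with a median of 0.

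Differences below are on the log2(FPKM + 1) scale, with the first-named group minus the second. They come from 1 limma model of 13679 genes over all 21 libraries, and a gene counts as called where its adjusted p (Benjamini and Hochberg) is under 0.05. Of the 10 genes, 9 were at or above 1 FPKM in every library and were tested, and LIN28A was not.

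LIN28A, the LIN28 protein of embryonic stem cells (hg19 chromosome 1, 26737259 to 26756219, plus strand), was barely detected. It read 0, 0.023 and 0 FPKM with the ANXA4 shRNA, 0, 0.022 and 0 with the B4GALNT1 shRNA, and 0 in all 3 NT shRNA libraries. It read 0.13, 0.019 and 0.039 FPKM with the B4GALNT1 guide and 0.054, 0.102 and 0.121 with the NT guide. The array libraries read 0.029, 0 and 0 for the ANXA4 array and 0, 0.027 and 0.029 for the NT array. LIN28A reads were thus present in 6 of 6 single-guide libraries, in 3 of 6 array libraries and in 2 of 9 shRNA libraries. They came to 50, 12 and 4 recovered reads, and in all 11 libraries with reads the number was even, so that 2 reads may stand for 1 fragment. A count of 0 allows up to 3 reads, or 0.035 FPKM in the shallowest shRNA library, which reaches above the lowest single-guide value. If 2 reads stand for 1 fragment, the limit is 3 fragments and lies higher than 0.035 FPKM. Either limit covers counting error only. Each of the 3 hairpin groups against the NT guide gave an exact two-sided permutation p of 0.1, the smallest that 3 libraries against 3 allow.

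LIN28B, the family member that blocks let-7 processing in fetal liver and many tumours, was well expressed (hg19 chromosome 6, 105404923 to 105531207, plus strand). It had 36.5, 34.7 and 33.3 FPKM with the ANXA4 shRNA, 26.6, 26.3 and 24.8 with the B4GALNT1 shRNA, and 21.6, 19.3 and 18.8 with the NT shRNA. The 3 hairpin groups do not overlap, and the NT hairpin gave the lowest level of all 7 groups. With the single guides LIN28B had 24.2, 22.5 and 22.7 FPKM for B4GALNT1 and 22.2, 23.6 and 21.9 for NT, which overlap. The arrays stood between the ANXA4 and B4GALNT1 hairpins, at 28.7 to 29.5 FPKM for the ANXA4 array and 27.6 to 29.7 for the NT array. Against the NT shRNA, LIN28B rose by 0.78 ± 0.05 with the ANXA4 shRNA (SE; limma adjusted p = 2.05e-10), which is 1.75-fold, and by 0.37 ± 0.05 with the B4GALNT1 shRNA (limma adjusted p = 7.79e-06), which is 1.30-fold. The ANXA4 hairpin exceeded the B4GALNT1 hairpin by 0.41 (limma adjusted p = 1.61e-06). Against the NT guide the ANXA4 hairpin was higher by 0.60 and the B4GALNT1 hairpin by 0.19, while the NT hairpin was lower, at −0.18 (limma adjusted p = 1.14e-08, 0.00517 and 0.00698).

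**Figure D1:**
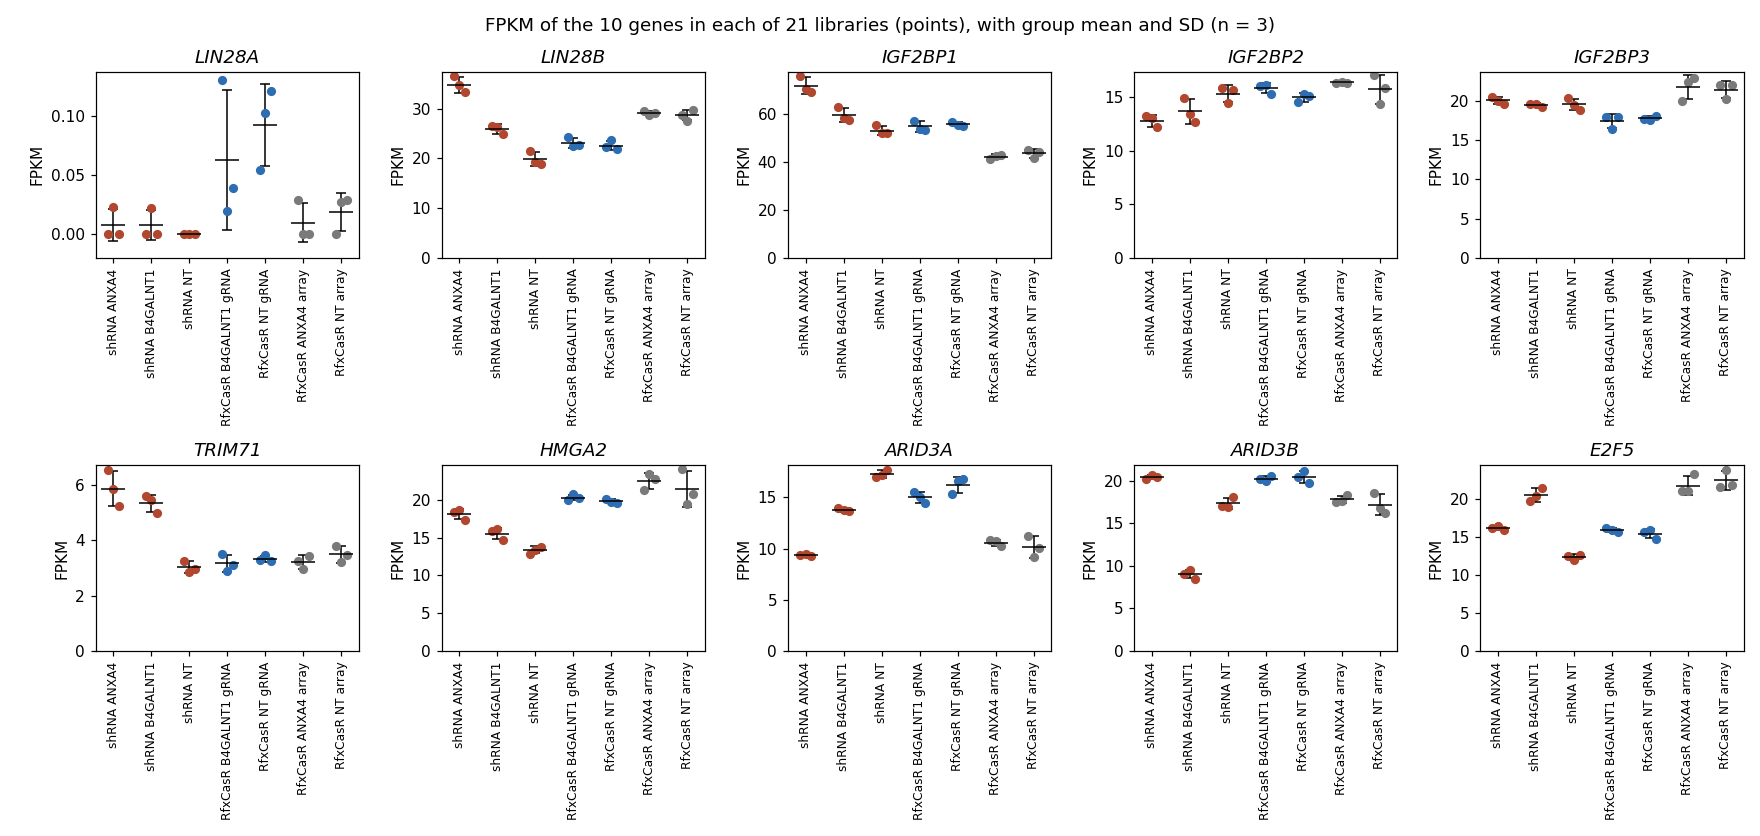
FPKM (y axes, from 0 except for LIN28A, whose SD bars reach below 0) of the 10 genes in each library of the 7 groups (x axes); points are libraries, horizontal marks and bars are the mean and SD of 3. LIN28B, TRIM71 and IGF2BP1 stand highest in the ANXA4 shRNA group, ARID3B has a single low group at 8.5 to 9.46 FPKM, and LIN28A stays at or under 0.13 FPKM.

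The IGF2BP proteins bind messenger RNAs and keep them stable or untranslated, and the 3 paralogs had different values across the hairpin groups. IGF2BP1 (hg19 chromosome 17, 47074774 to 47133507, plus strand) was the most abundant of the 10 genes. It had 75.6, 70.1 and 68.8 FPKM with the ANXA4 shRNA, 62.7, 58.2 and 57.4 with the B4GALNT1 shRNA, and 55.1, 51.9 and 51.8 with the NT shRNA. The hairpin groups keep the same order as for LIN28B and do not overlap. The single guides gave 53.0 to 57.1 FPKM for B4GALNT1 and 54.8 to 56.6 for NT, and the arrays were lowest at 41.0 to 42.7 and 41.4 to 44.9 FPKM. Against the NT shRNA, IGF2BP1 rose by 0.43 ± 0.04 with the ANXA4 hairpin and by 0.16 ± 0.04 with the B4GALNT1 hairpin (SE; limma adjusted p = 1.41e-07 and 0.00505). Set against the NT guide, it rose by 0.36 with the ANXA4 hairpin, and it differed by 0.09 with the B4GALNT1 hairpin and by −0.07 with the NT hairpin (limma adjusted p = 1.78e-06, 0.0969 and 0.199). The B4GALNT1 value was called by voom (0.11, adjusted p = 0.0189) and after quantile normalization (0.13, limma adjusted p = 0.041), and the NT value by voom (−0.10, adjusted p = 0.0376) and after median centring (−0.11, limma adjusted p = 0.0274).

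IGF2BP2 (hg19 chromosome 3, 185360919 to 185542844, minus strand), the paralog that stays expressed in adult tissues, had 13.2, 13.1 and 12.2 FPKM with the ANXA4 shRNA. It had 14.99, 13.5 and 12.7 with the B4GALNT1 shRNA and 15.9, 14.4 and 15.7 with the NT shRNA. It fell by 0.24 ± 0.06 with the ANXA4 hairpin against the NT hairpin (SE; limma adjusted p = 0.00219), opposite in sign to IGF2BP1. The B4GALNT1 and NT hairpin libraries overlap, and the difference of −0.15 between them was called at a limma adjusted p of 0.043. That call was lost without B4GALNT1 shRNA replicate 2 or 3 (limma adjusted p = 0.107 and 0.213), without NT shRNA replicate 1 or 3 (0.138 and 0.123), after median centring (0.138) or quantile normalization (0.164), by voom (0.12) and in the authors' deposited table (0.125). It was also lost in a model of the groups compared alone (0.0835) and without the filter on low values (0.0652). IGF2BP2 was lower with the ANXA4 hairpin than with the NT guide, at −0.21 (limma adjusted p = 0.00536).

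IGF2BP3 (hg19 chromosome 7, 23349828 to 23509995, minus strand), a paralog found in fetal tissue and tumours, changed little between hairpins. It had 20.5, 20.05 and 19.7 FPKM with the ANXA4 shRNA, 19.6, 19.6 and 19.2 with the B4GALNT1 shRNA and 20.4, 19.4 and 18.9 with the NT shRNA. The differences from the NT hairpin were 0.04 ± 0.05 and −0.01 ± 0.05 (SE; limma adjusted p = 0.579 and 0.92), and no call was made under any alternative. All 9 hairpin libraries lay above the 6 single-guide libraries, which held 16.4 to 18.0 FPKM with the B4GALNT1 guide and 17.6 to 18.1 with the NT guide. The arrays had the highest means of all groups, 21.8 FPKM for the ANXA4 array and 21.4 for the NT array. Their libraries overlap those of the ANXA4 shRNA, so a level above the single guides was not particular to hairpins. Differences from the NT guide were 0.16 with the ANXA4 hairpin, 0.12 with the B4GALNT1 hairpin and 0.13 with the NT hairpin (limma adjusted p = 0.00927, 0.0591 and 0.0393). The NT hairpin call was lost without NT shRNA replicate 1 or 2 (limma adjusted p = 0.154 and 0.0698), without NT guide replicate 1, 2 or 3 (0.0906, 0.0973 and 0.0546), after median centring (0.147) or quantile normalization (0.109), and by voom (0.103). The B4GALNT1 hairpin value was called after median centring (0.0407), by voom (0.0377) and in a model without the arrays (0.0202).

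TRIM71, a developmental ubiquitin ligase and mRNA repressor known as LIN-41 in the worm, was the gene with the most let-7 sites and the lowest level among the 9 tested (hg19 chromosome 3, 32859510 to 32939318, plus strand). It had 6.53, 5.83 and 5.24 FPKM with the ANXA4 shRNA and 5.59, 5.44 and 4.99 with the B4GALNT1 shRNA, against 3.26, 2.86 and 2.96 with the NT shRNA. The single guides gave 2.89 to 3.50 FPKM for B4GALNT1 and 3.23 to 3.45 for NT, and the arrays 2.95 to 3.42 and 3.21 to 3.79. The 6 libraries with a targeting hairpin therefore lay above all other 15 libraries, and those 15 overlap. Against the NT shRNA, TRIM71 rose by 0.77 ± 0.08 with the ANXA4 hairpin, 1.94-fold, and by 0.66 ± 0.08 with the B4GALNT1 hairpin, 1.76-fold (SE; limma adjusted p = 8.84e-08 and 1.10e-06). Against the NT guide it rose by 0.66 and 0.55 with the same hairpins, and it differed by −0.11 with the NT hairpin (limma adjusted p = 7.81e-07, 1.42e-05 and 0.266). The 2 targeting hairpins differed from each other by 0.11 (limma adjusted p = 0.243).

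HMGA2, a chromatin protein of embryonic tissue and a textbook let-7 target (hg19 chromosome 12, 66218240 to 66360071, plus strand), had 18.4, 18.6 and 17.3 FPKM with the ANXA4 shRNA. It had 15.8, 16.1 and 14.7 with the B4GALNT1 shRNA and 12.9, 13.4 and 13.8 with the NT shRNA. The single guides gave 19.9 to 20.7 FPKM for B4GALNT1 and 19.6 to 20.2 for NT, so each hairpin group lay below both guide groups with no overlap. The arrays ran from 19.5 to 24.1 FPKM. Against the NT shRNA, HMGA2 rose by 0.41 ± 0.06 and 0.20 ± 0.06 with the ANXA4 and B4GALNT1 hairpins (SE; limma adjusted p = 7.75e-06 and 0.00766). Compared with the NT guide it fell by 0.54 with the NT hairpin and by 0.33 with the B4GALNT1 hairpin (limma adjusted p = 4.84e-07 and 0.000146). With the ANXA4 hairpin the difference was −0.13 (limma adjusted p = 0.0712), which was called after median centring (−0.16, 0.0137) or quantile normalization (−0.16, 0.0215), by voom (−0.16, 0.0263) and without the arrays (−0.13, 0.0142).

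ARID3A, a DNA-binding protein of the ARID family first known from B cells (hg19 chromosome 19, 926037 to 972803, plus strand), ran against LIN28B. It had 9.39, 9.47 and 9.26 FPKM with the ANXA4 shRNA, 14.02, 13.8 and 13.6 with the B4GALNT1 shRNA and 17.0, 17.2 and 17.7 with the NT shRNA. The hairpin groups do not overlap, and their order is the reverse of that of LIN28B. The single guides gave 14.4 to 15.6 FPKM for B4GALNT1 and 15.3 to 16.8 for NT, and the arrays 9.20 to 11.3. ARID3A fell by 0.82 ± 0.05 with the ANXA4 hairpin and by 0.31 ± 0.05 with the B4GALNT1 hairpin against the NT hairpin (SE; limma adjusted p = 2.47e-10 and 0.000121). From the level with the NT guide it fell by 0.73 and 0.22 with these hairpins, and it differed by 0.09 with the NT hairpin (limma adjusted p = 2.01e-09, 0.00299 and 0.191).

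ARID3B, its paralog (hg19 chromosome 15, 74833518 to 74890472, plus strand), was set apart by the B4GALNT1 hairpin. It had 20.1, 20.6 and 20.4 FPKM with the ANXA4 shRNA, 8.99, 9.46 and 8.50 with the B4GALNT1 shRNA and 17.0, 16.9 and 18.1 with the NT shRNA. The other 18 libraries ran from 16.2 to 21.2 FPKM, so the 3 B4GALNT1 shRNA libraries were below all of them. ARID3B fell by 0.88 ± 0.05 with the B4GALNT1 hairpin against the NT hairpin (SE; limma adjusted p = 4.34e-11), to 0.518 of the level there, and by 1.10 against the NT guide (limma adjusted p = 4.80e-12). The B4GALNT1 guide, aimed at the same gene, gave 20.1, 19.9 and 20.6 FPKM, and the NT guide 20.4, 21.2 and 19.7, which overlap. With the ANXA4 hairpin ARID3B rose by 0.22 against the NT hairpin (limma adjusted p = 0.000645) and differed by 0.00 from the NT guide (limma adjusted p = 0.986), with the NT hairpin at −0.22 against that guide (limma adjusted p = 0.000772).

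E2F5, a repressor-type E2F transcription factor of the cell cycle (hg19 chromosome 8, 86089619 to 86126753, plus strand), had 16.1, 16.5 and 15.9 FPKM with the ANXA4 shRNA. It had 19.7, 20.4 and 21.5 with the B4GALNT1 shRNA and 12.5, 11.9 and 12.7 with the NT shRNA. The order differs from that of LIN28B, since the B4GALNT1 hairpin stood highest of the 3. The single guides gave 15.6 to 16.1 FPKM for B4GALNT1 and 14.7 to 15.9 for NT, and the arrays 20.98 to 23.9. E2F5 rose by 0.36 ± 0.05 with the ANXA4 hairpin and by 0.69 ± 0.05 with the B4GALNT1 hairpin against the NT hairpin (SE; limma adjusted p = 3.51e-06 and 1.06e-09). Against the NT guide it rose by 0.39 with the B4GALNT1 hairpin and fell by 0.30 with the NT hairpin (limma adjusted p = 3.36e-06 and 4.88e-05), and the ANXA4 hairpin differed by 0.06 (limma adjusted p = 0.265).

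Counted together, 8 of the 9 tested genes were called with the ANXA4 shRNA against the NT shRNA, 6 higher and 2 lower. The background was high, since 51.8% of all tested genes were called, 25.6% higher and 26.3% lower. The B4GALNT1 shRNA against the NT shRNA also called 8 of 9, with 5 higher and 3 lower, against 44.4% of all genes, 18.4% higher and 26.0% lower. With the ANXA4 hairpin the higher genes were LIN28B, TRIM71, IGF2BP1, HMGA2, E2F5 and ARID3B, and the lower ones ARID3A and IGF2BP2. With the B4GALNT1 hairpin the higher genes were TRIM71, E2F5, LIN28B, HMGA2 and IGF2BP1, and the lower ones ARID3B, ARID3A and IGF2BP2. The NT hairpin libraries serve both comparisons, so the 2 lists are not independent of each other. The median difference of the 9 genes was 0.36 with the ANXA4 hairpin and 0.16 with the B4GALNT1 hairpin, and over all tested genes it was −0.01 and −0.04. In the authors' deposited table, 8 of the 10 genes were called with the ANXA4 hairpin and 7 with the B4GALNT1 hairpin, at 45.1% and 39.0% of all genes in it.

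Against the NT guide, whose libraries do not enter those lists, genes were called in both directions with each hairpin. The NT hairpin itself called 5 of 9 genes, 1 higher and 4 lower, with 48.9% of all genes called, 26.5% higher and 22.4% lower. Its 1 higher gene was IGF2BP3, a call lost in 5 of the 6 fits that leave out 1 library. The ANXA4 hairpin called 6 of 9, 4 higher and 2 lower, with 54.0% of all genes called, 29% higher and 25% lower. The B4GALNT1 hairpin called 6 of 9, 3 higher and 3 lower, with 40.9% of all genes called, 19.4% higher and 21.5% lower. These 3 comparisons share the NT guide libraries. Medians of the 9 genes were −0.11, 0.06 and 0.09 for the NT, ANXA4 and B4GALNT1 hairpins, against 0.02, 0.02 and −0.02 over all tested genes. The mean of the 3 hairpin groups against the mean of the 2 single-guide groups called 8 of 9 genes, 4 higher and 4 lower, with 57.3% of all genes called, 28.7% higher and 28.5% lower. LIN28B, TRIM71, IGF2BP1 and IGF2BP3 were the higher genes there, and HMGA2, ARID3A, ARID3B and IGF2BP2 the lower ones. A hairpin group differs from a guide group in the whole construct, so hairpin expression and the absence of RfxCasR cannot be told apart. Summed HEK 293 markers also differed, at 559 to 582 FPKM with the NT hairpin, 709 to 737 with the ANXA4 hairpin and 748 to 766 with the B4GALNT1 hairpin, against 796 to 814 with the NT guide. Vimentin, at 388 to 682 FPKM over all libraries, makes up most of that sum, so it says little of the other markers. All 10 markers were detected in every library, and their part in these differences was not tested. The summed markers of blood, endothelium and fibroblasts were 9.93 to 10.2 FPKM with the NT hairpin, 8.00 to 8.14 with the ANXA4 hairpin and 9.25 to 10.9 with the B4GALNT1 hairpin, against 11.5 to 13.3 with the NT guide, and their part was not tested either.

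**Figure D2:**
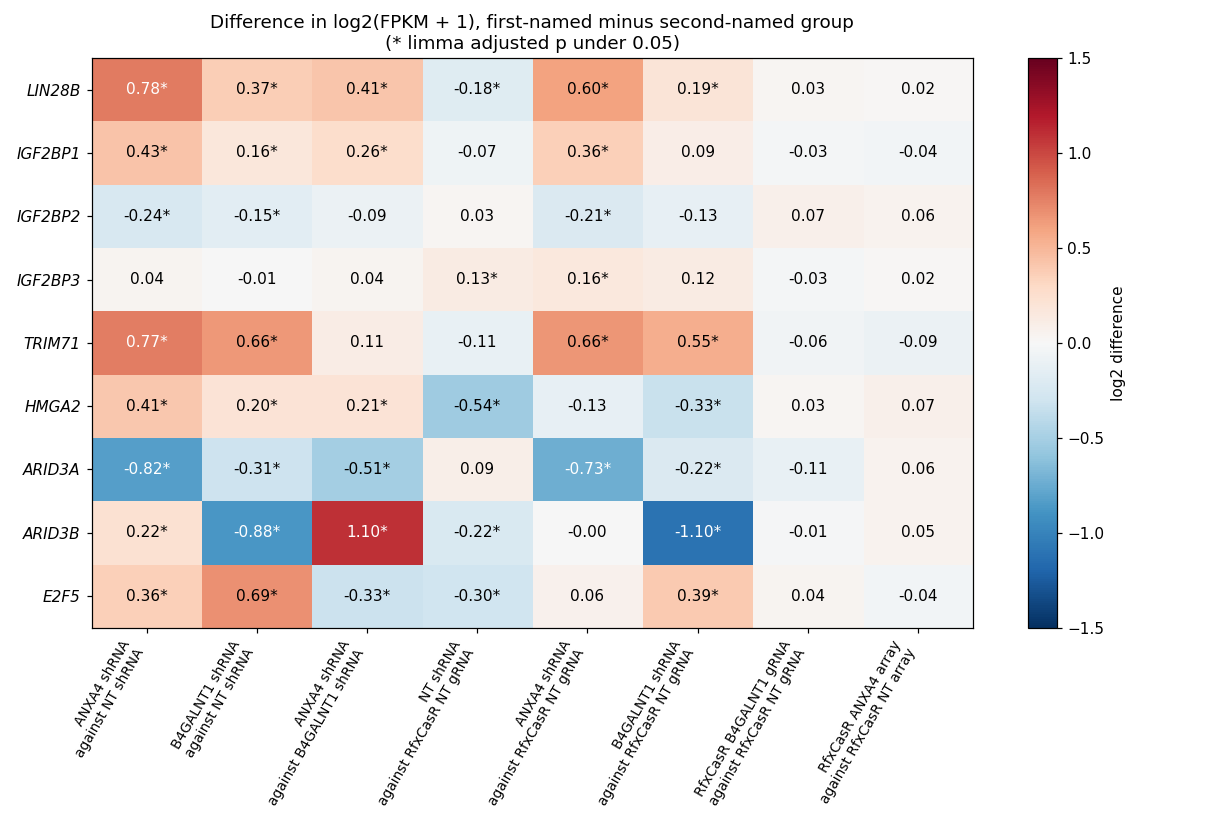
Differences in log2(FPKM + 1) of the 9 tested genes (rows) in 8 comparisons (columns), first-named minus second-named group, with colour and printed value for the size and an asterisk for a limma adjusted p under 0.05. Columns with a hairpin hold values of both signs, from −1.10 to 1.10 for ARID3B, and the guide and array columns hold no asterisk.

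Between the 2 targeting hairpins, with no shared control, 6 of 9 genes differed, at 46.7% of all genes called, 27.1% higher and 19.6% lower. ARID3B was 2.27-fold higher with the ANXA4 hairpin (1.10 ± 0.05 SE, limma adjusted p = 1.25e-12), LIN28B 1.34-fold higher, IGF2BP1 1.20-fold and HMGA2 1.16-fold. ARID3A was lower, at 0.678 of the level with the B4GALNT1 hairpin (−0.51, limma adjusted p = 2.18e-07), and so was E2F5, at 0.788 of it (−0.33, limma adjusted p = 1.59e-05). TRIM71, IGF2BP2 and IGF2BP3 were not called, with differences of 0.11, −0.09 and 0.04.

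With the guides no difference in these genes passed the test. With the B4GALNT1 guide against the NT guide, limma called 0 of 9 genes, and 0 passed an unadjusted p under 0.05. Their differences ran from −0.11 to 0.07 with standard errors of 0.044 to 0.076. The comparison called 0.00731% of all tested genes, a single gene, and that gene was B4GALNT1. For the libraries labelled ANXA4 array against those labelled NT array, limma called 0 of 9 and 0 had an unadjusted p under 0.05, with differences of −0.09 to 0.07 and 0.285% of all genes called. voom on the recovered reads called 0 of 9 in each, and the authors' deposited tables called 0 of 10 in each, with 0.0126% and 0.0368% of their genes called.

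The same target, B4GALNT1, was lowered by a hairpin and by a guide, so the difference between those 2 changes was tested itself. The falls of B4GALNT1 were not equal, 31.8% with the hairpin and 62.4% with the guide, each against its own control. The controls differed in B4GALNT1 as well, at 4.08 FPKM with the NT hairpin and 5.89 with the NT guide (limma adjusted p = 0.000109). The difference between the 2 changes passed for 6 of 9 genes, 4 higher and 2 lower. Of all genes 29.8% were called, 12.9% higher and 16.9% lower. The change with the hairpin minus the change with the guide was 0.71 ± 0.11 for TRIM71, 0.65 ± 0.07 for E2F5 and 0.34 ± 0.07 for LIN28B (SE; limma adjusted p = 5.45e-05, 7.17e-07 and 0.00137). It was −0.86 ± 0.07 for ARID3B (SE; limma adjusted p = 1.92e-08). The values for IGF2BP1, 0.19, and IGF2BP2, −0.23, were called at limma adjusted p of 0.0263 and 0.0497. The IGF2BP1 call was lost without B4GALNT1 shRNA replicate 1 (limma adjusted p = 0.0789), NT shRNA replicate 2 or 3 (0.0605 and 0.0629), B4GALNT1 guide replicate 2 or 3 (0.058 and 0.0674) or NT guide replicate 1 (0.0609). The IGF2BP2 call was lost in 10 of the 12 fits that leave out 1 library and under 6 other settings, at limma adjusted p from 0.0504 to 0.14. ARID3A, at −0.20, missed the threshold with a limma adjusted p of 0.0559 and passed it without the arrays (0.0129) and without B4GALNT1 guide replicate 3 (0.0484). HMGA2, at 0.17, missed it at 0.126 and passed without the arrays (0.0304), after median centring (0.0355) or quantile normalization (0.04) and by voom (0.0486).

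Other known let-7 targets were called higher more often than lower with each targeting hairpin against the NT hairpin, whose libraries serve both comparisons, and lower more often than higher with the NT hairpin against the NT guide. Of 29 listed, 27 were tested. With the ANXA4 hairpin against the NT hairpin 11 rose and 2 fell, and with the B4GALNT1 hairpin 13 rose and 5 fell. These are 40.7% higher and 7.41% lower with the ANXA4 hairpin, against 25.6% and 26.3% of all genes, and 48.1% and 18.5% with the B4GALNT1 hairpin, against 18.4% and 26.0% of all genes. Their median differences were 0.02 and 0.17, and those of all genes −0.01 and −0.04. PRTG, a fetal cell-surface protein, rose by 1.44 with the ANXA4 hairpin, with 5.59 FPKM against 1.43 with the NT hairpin. CDK6, a cyclin-dependent kinase of G1, rose by 1.23 with the ANXA4 hairpin and fell by 0.45 with the B4GALNT1 hairpin, averaging 14.2 and 3.74 FPKM, against 5.49 with the NT hairpin. CDC34, a ubiquitin-conjugating enzyme, rose by 0.54 and 0.67, and DICER1, which cuts let-7 precursors and short hairpins, by 0.54 and 0.62. CCND2, a D-type cyclin, rose by 0.25 with the ANXA4 hairpin and fell by 0.86 with the B4GALNT1 hairpin. With the NT hairpin against the NT guide 4 rose and 16 fell, which is 14.8% and 59.3% against 26.5% and 22.4% of all genes, with a median of −0.17 against 0.02 for all genes. CDK6, at −0.78, CDC34, at −0.65, and HMGA1, the paralog of HMGA2, at −0.41, were the lower genes with the smallest p-values there, and CDC25A, a cell-cycle phosphatase, at 0.32, the higher gene with the smallest. With the ANXA4 hairpin against the NT guide 7 rose and 7 fell, which is 25.9% each, against 29% and 25% of all genes. The B4GALNT1 hairpin against that guide had 4 higher and 6 lower, 14.8% and 22.2% against 19.4% and 21.5% of all genes. With the B4GALNT1 guide and the arrays limma called 0 of 27, as set beside the 9 genes above.

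**Figure D3:**
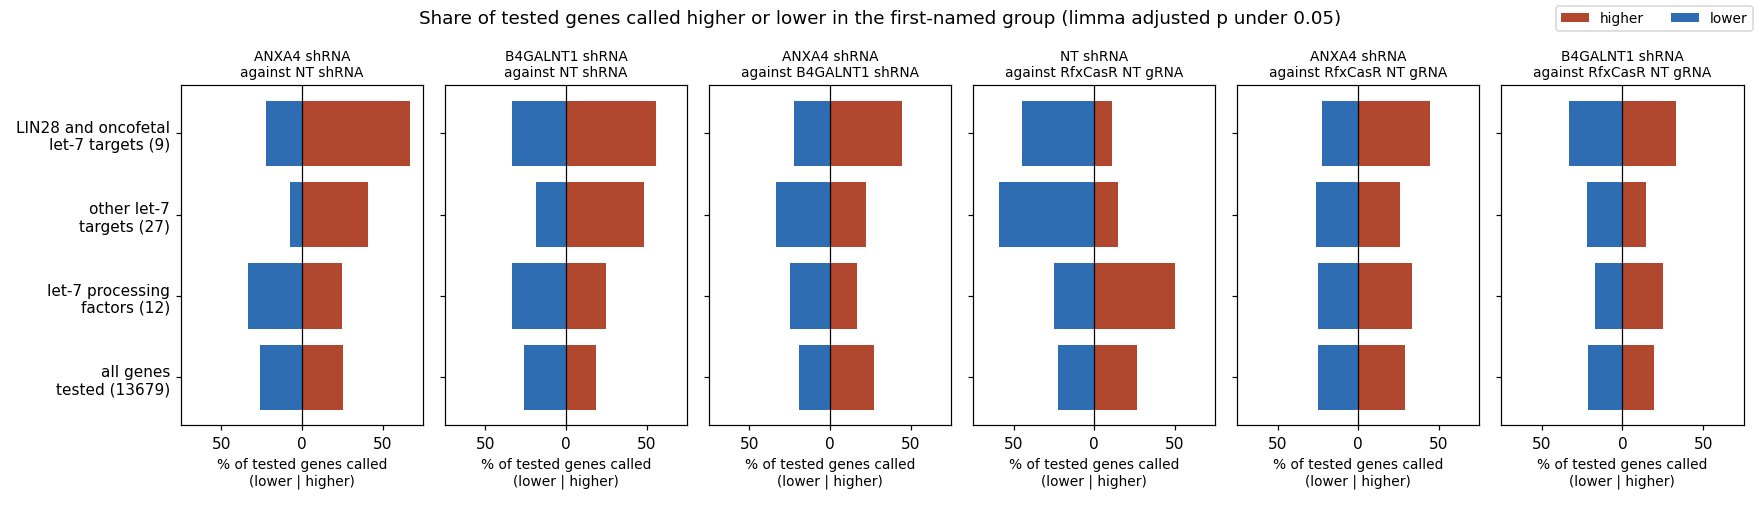
Share of tested genes called lower (left of 0) and higher (right of 0) in the first-named group, in %, for the 9 LIN28 and oncofetal genes, 27 other let-7 targets, 12 let-7 processing factors and all 13679 genes, in 6 comparisons of hairpin groups. Each list holds calls in both directions in each comparison, and the other let-7 targets lean lower with the NT hairpin, 16 against 4. DICER1 is counted both among the other let-7 targets and among the processing factors.

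Among the factors that make or mark let-7, calls went in both directions. All 12 were tested, and 3 rose and 4 fell with each targeting hairpin against the NT hairpin. These are 25% higher and 33.3% lower, while the shares of all genes were 25.6% and 26.3% for the ANXA4 hairpin and 18.4% and 26.0% for the B4GALNT1 hairpin. XPO5, which exports microRNA precursors and short hairpins from the nucleus, rose by 0.33 with the ANXA4 hairpin and fell by 0.37 with the B4GALNT1 hairpin, averaging 50.5 and 30.7 FPKM, against 39.9 with the NT hairpin. DICER1, counted also among the other let-7 targets, rose by 0.54 with the ANXA4 hairpin and by 0.62 with the B4GALNT1 hairpin. DIS3L2, the exonuclease that removes uridylated let-7 precursors, fell by 0.35 and 0.25 with these hairpins. KHSRP, which favours let-7 processing, rose by 0.15 with the ANXA4 hairpin and by 0.28 with the B4GALNT1 hairpin. HNRNPA1, known to oppose that processing, fell by 0.22 with the ANXA4 hairpin and rose by 0.13 with the B4GALNT1 hairpin. With the NT hairpin against the NT guide 6 rose and 3 fell, which is 50% and 25% against 26.5% and 22.4% of all genes, with HNRNPA1 by 0.31 and KHSRP by 0.27 among those that fell. Of the terminal uridylyl transferases that act with LIN28, ZCCHC11 was called in none of these 3 comparisons, at −0.03, 0.00 and 0.09, and ZCCHC6 fell by 0.22 with the B4GALNT1 hairpin against the NT hairpin and rose by 0.27 with the NT hairpin against the NT guide.

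Mature let-7 was not measured in these messenger RNA libraries. The 12 let-7 precursor annotations were at or near 0, and 0 of them passed the filter. MIR98 had reads in each group, at most 7 in a library, MIRLET7D and MIRLET7I had 1 read each in a single library, and the other 9 had none. Of 6 listed host genes, HUWE1, which carries let-7f-2 and miR-98, and WDR82, which lies at let-7g, were the 2 tested. HUWE1 and WDR82 rose by 0.22 each with the B4GALNT1 hairpin against the NT hairpin and differed by 0.08 and −0.05 with the ANXA4 hairpin. Of 7 other oncofetal genes, 3 were tested. GPC3, a fetal liver proteoglycan, fell by 0.32 and 0.47 with the ANXA4 and B4GALNT1 hairpins against the NT hairpin. Against the NT guide GPC3 differed by 0.02 and −0.13 with these hairpins, neither called, while the NT hairpin was higher by 0.34, which was called. IGF2, a fetal growth factor and bound by the IGF2BP proteins, rose by 0.50 with the B4GALNT1 hairpin against the NT hairpin, at 1.30 FPKM against 0.62. The NT guide had 1.24 FPKM of IGF2, and the B4GALNT1 hairpin differed from it by 0.04, not called. H19, the imprinted RNA beside IGF2, was lower by 0.51 with the NT hairpin than with the NT guide, at 2.61 FPKM against 4.18. With the ANXA4 hairpin H19 was lower than with that guide by 0.72, and with the B4GALNT1 hairpin by 0.25, the latter not called.

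Genes that carry a let-7 site had median differences close to those of genes without one. The 12206 coding genes were divided into 406 with an 8mer, 1370 with a 7mer only and 10430 with no site. With the ANXA4 hairpin against the NT hairpin their median differences were 0.03, 0.01 and 0.00, and with the B4GALNT1 hairpin −0.03, −0.04 and −0.03. With the NT hairpin against the NT guide they were 0.00, 0.03 and 0.02. The shares called higher among genes with an 8mer were 30.8%, 20.9% and 26.1%, against 27.6%, 19.7% and 28.4% of genes with no site. The shares called lower were 24.1%, 23.9% and 25.4% with an 8mer, against 27.1%, 26.9% and 23.4% with no site. These classes were not matched for length of the untranslated region or for level, and the differences between them were not tested.

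Likeness among the 9 genes was described over the 7 group means, which fall into 3 kinds of construct and are few. Of 36 pairs, 19 had a Pearson r above 0 and 17 below 0. The highest was 0.73 for IGF2BP1 and TRIM71, and the lowest was −0.96 for LIN28B and ARID3A. TRIM71 and IGF2BP2 had −0.93 and IGF2BP1 and IGF2BP2 −0.89. Over the 5 groups without arrays 19 pairs were again above 0 and 17 below, and LIN28B, IGF2BP1 and TRIM71 came together, with 0.99 for LIN28B and IGF2BP1 and 0.89 for TRIM71 with either, whereas LIN28B and IGF2BP1 had 0.16 over 7. ARID3A had −0.99 with LIN28B and −0.98 with IGF2BP1 over these 5. ARID3B stood near 0 with LIN28B, at 0.03 over 7 groups and 0.01 over 5.

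**Figure D4:**
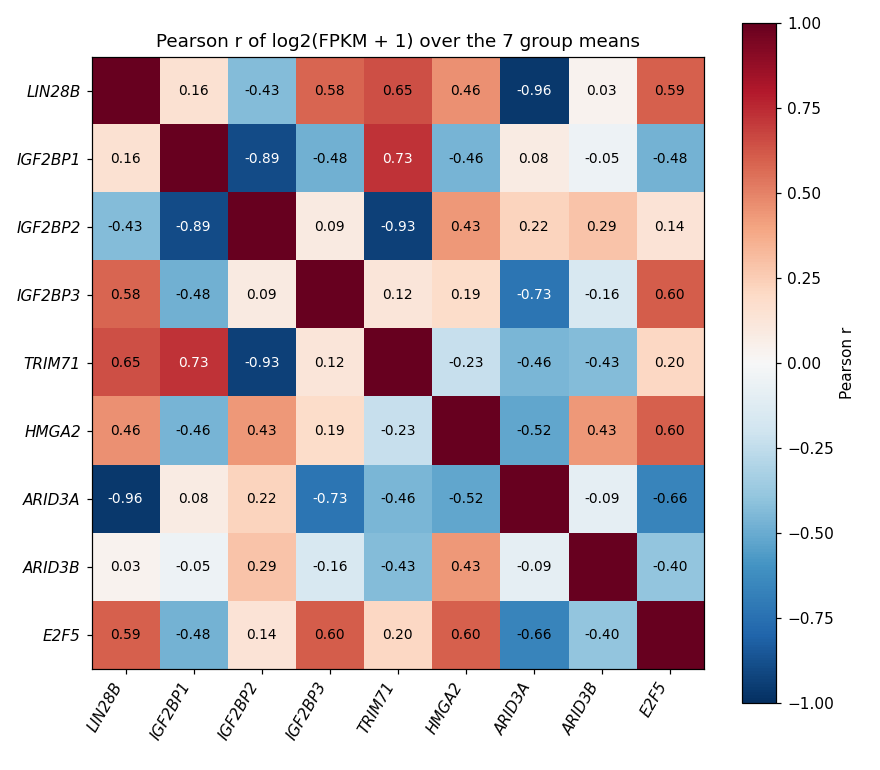
Pearson r of log2(FPKM + 1) between each pair of the 9 tested genes (rows and columns) over the 7 group means. Red marks pairs above 0 and blue pairs below 0, and the matrix holds 19 of one and 17 of the other, from −0.96 to 0.73.

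The gene most like each of the 9 over the 7 group means was another gene of the table in every case. It was R3HDM1 for LIN28B (r = 0.997), KPNA6 for IGF2BP1 (0.997), TSG101 for IGF2BP3 (0.991) and USP8 for TRIM71 (0.991). It was GATB for HMGA2 (0.994), THBS3 for ARID3A (0.994), DBF4B for ARID3B (0.995) and CYCS for E2F5 (0.992). For IGF2BP2 the highest was an uncharacterised locus, LOC105374366 (0.978). None of the 9 was among the 3 genes most like another, and with 13678 candidates and 7 points high values are easily found, so these are names only.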

How the data were processed

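HEK 293FT messenger RNA was measured in 21 libraries, 7 groups of 3 biological replicates per the labels, with no more said of their origin; p-values therefore reflect only the variation among these libraries. Per the submitters' processing notes, the authors used DESeq2 1.14.1, R 3.3.2, STAR, HOMER and FastQC with hg19. The authors deposited FPKM for 27142 genes; per the file headers, HOMER took sense-strand reads over exons, with transcripts condensed to genes. Transcript length is given in the same deposited table. The authors also deposited 4 comparison tables with a mean normalized count (a signal), log2 fold changes and adjusted p-values, used as the authors' own.

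Between 95.6% and 99.5% of a library's values, times exon length, came out as whole reads (tolerance 0.1). Genes with at least 1 FPKM in 3 libraries were tested on log2(FPKM + 1), which understates changes of low genes, with limma 3.58.1 in R 4.3.3 and adjusted p under 0.05 within each of 10 comparisons. The model was checked on simulated data. The labels give the replicates a number only, so the main model held no replicate term. Alternatives were another pseudocount (0.1), other filters, median centring, quantile normalization, fewer groups, no variance trend, voom on the recovered reads, a stricter threshold (0.01), a replicate block, leaving out each library and, added after seeing the data, leaving out the arrays. Between libraries of a group, the chi-square of the reads was 2.25 to 13.0 times its degrees of freedom, so none duplicated another.

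Named genes were all 10 members, up to 4 called genes per list and comparison with the smallest p, the targets, and the 3 genes most like each member over group means. Genes named from other lists beyond these were chosen after their values were seen. The members and lists were chosen with earlier results of these data known. Let-7 sites were read from GENCODE v29 transcripts (GRCh38), matched by RefSeq accession for 11601 genes and by symbol for 605. MicroRNA sequences are from RefSeq (GRCh38.p14), and no sequence of E2F5 is given.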

Additional observations from a re-analysis of the deposited data

Results flagged for a closer look

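The change with the B4GALNT1 hairpin (against the NT hairpin) and the change with the B4GALNT1 guide (against the NT guide) differed in a direct limma test for 6 of 9 genes. The difference was −0.86 for ARID3B, with −0.88 for the hairpin and −0.01 for the guide. For TRIM71 it was 0.71, with 0.66 and −0.06. For E2F5 it was 0.65, with 0.69 and 0.04, and for LIN28B it was 0.34, with 0.37 and 0.03. For IGF2BP1 it was 0.19, with 0.16 and −0.03, and for IGF2BP2 it was −0.23, with −0.15 and 0.07. The 2 smallest, IGF2BP1 and IGF2BP2, lost the call when single libraries were left out. Of all tested genes, 29.8% passed the same test.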

How the results depend on the processing

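No member changed sign where it was called, under any alternative. Counts of called genes among the 9 stayed within 1.5 times in each comparison, and when 1 library was left out they ran from 7 to 8 for the B4GALNT1 against the NT hairpin, 4 to 5 for the NT hairpin against the NT guide, 6 to 7 for the B4GALNT1 hairpin against the NT guide and 4 to 5 for the hairpin change against the guide change, and were constant in the other 6. In all, 44 alternative values fell below the threshold, 25 passed it and 1613 kept their side. A mean FPKM of at least 5 left TRIM71 out. Over all genes, the single gene called with the B4GALNT1 guide became 2 without the filter, 2 in the authors' deposited table and 3 without the arrays. The 39 genes called between the arrays became 3 with those groups alone, 114 by voom, 7 at a threshold of 0.01, 23 without ANXA4 array replicate 2 and 8 in the authors' deposited table. The hairpin change against the guide change called 4078 genes, and 2608 at 0.01. Median centring moves all genes of a comparison by the same amount. With it IGF2BP2 went from −0.15 to −0.11 for the B4GALNT1 against the NT hairpin. HMGA2 went from 0.17 to 0.22 for the hairpin change against the guide change.

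Deviations of same-numbered replicates correlated weakly, from −0.146 to 0.0901. The own number still matched best for all 3 replicates with the B4GALNT1 guide and with the ANXA4 hairpin, each against the NT guide. In every hairpin and single-guide group IGF2BP1 was highest in replicate 1 and lowest in replicate 3. The share of reads in genes was highest there in replicate 2 and lowest in replicate 3. A shift shared by number was thus not excluded, and the main model held no term for it. With the replicate block the B4GALNT1 hairpin against the NT guide called 7 of the 9 genes in place of 6, adding IGF2BP1 at 0.09, and the guide comparison called 2 genes in place of 1; no other count of the 9 moved.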
